A study of Mus musculus with 21 samples.

Results

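Monocyte-derived cells sorted from the adipose tissue of obese mice were compared with CD11c-positive macrophages sorted from the same tissue, gene by gene, by RNA sequencing. The comparison used 6 of the 21 libraries of the study, 3 for each population, and covered 20081 expressed genes of the 54532 in the deposited table. All mice were male C57BL/6 on a high fat diet for 16 weeks, and no other treatment or allele is named for either group. Adipose tissue was digested with collagenase and the cells were separated by flow cytometry, the macrophages as cells positive for both MHC class II and CD11c. The markers that set the gate of the monocyte-derived cells, titled P3, are not given in the labels. The libraries of both groups are numbered 1 to 3, and libraries of equal number were treated as pairs. The labels do not say that libraries of one group came from separate animals, so the p-values measure only the spread between these samples. MHCII-low macrophages and CD11c-negative macrophages from the obese mice, again 3 libraries each, entered the same model and are cited for their levels only.

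Adipose tissue of obese mice gathers CD11c-positive macrophages that take up lipid, carry large lysosomes and surround dying adipocytes. Circulating monocytes enter the tissue through the chemokine receptor CCR2 and can become macrophages or cells that resemble dendritic cells. Dendritic cells sample antigen in the tissue and, once mature, use the receptor CCR7 to travel to lymph nodes, where they show peptides on MHC class II molecules to T cells.

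Total counts ran from 20871699 to 25642197 in the monocyte-derived libraries and from 30073052 to 31965501 in the CD11c-positive libraries. With every library thinned to 11245851 counts, 27428 to 32114 genes were detected in the monocyte-derived libraries and 23468 to 23737 in the CD11c-positive libraries. Odorant and pheromone receptor genes together took 73.7 to 163 CPM (counts scaled to a common library total) in monocyte-derived libraries and 21.5 to 24.2 CPM in CD11c-positive libraries, highest in monocyte-derived replicate 2. Protein-coding genes took 76.9% to 79.9% of counts in the monocyte-derived group and 81.3% to 82.7% in the CD11c-positive group. Counting intervals at these depths cover sampling of reads only, since copies made by PCR are not independent molecules.

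The sort markers were read first. Itgax, the gene of CD11c, had 350.2, 307 and 364 CPM in monocyte-derived libraries 1 to 3, against 469, 640.2 and 618 CPM in their CD11c-positive counterparts (log2 fold change -0.72, SE 0.24, adjusted p = 0.0335). Every monocyte-derived library was below every CD11c-positive one, yet far above CD11c-negative macrophages (83.3 ± 21.4 CPM, mean ± SD, n = 3) and MHCII-low macrophages (43.9 ± 19.6 CPM). All CPM are scaled by TMM unless said otherwise, a log2 fold change is monocyte-derived over CD11c-positive, and every adjusted p is from the quasi-likelihood test of edgeR. The Itgax call was lost (adjusted p 0.061 to 0.127) without monocyte-derived replicate 2 or 3, any one CD11c-positive replicate, or the number 2 or number 3 pair, and with scaling from coding genes (adjusted p = 0.0682) or no pairing (adjusted p = 0.0712), with log2 fold changes of -0.77 to -0.51 in these settings. H2-Ab1, a chain of the class II molecule, had 4256, 3040.5 and 4193 CPM in monocyte-derived libraries and 2156, 1211 and 1646 CPM in CD11c-positive libraries (log2 fold change 1.20, SE 0.18, adjusted p = 0.000259), so both populations carried class II transcripts and the monocyte-derived libraries held more. Ptprc, the pan-leukocyte gene CD45, stood at 1049 ± 32.2 CPM in the monocyte-derived group and 780.1 ± 23.6 CPM in CD11c-positive macrophages (log2 fold change 0.43).

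Across all genes 58.3% were called, that is had an adjusted p under 0.05. These were 5687 genes higher in monocyte-derived cells (28.3% of those tested) and 6024 lower (30.0%). The libraries of the groups did not overlap for 6113 genes that were higher (30.4%) and 6132 that were lower (30.5%). A fold of at least 2 was reached by 3077 of the called genes that were higher and 1974 that were lower, while among called genes with at least 10 CPM in the higher group 2316 were higher and 3959 lower. Protein-coding genes were more often lower (39.1% of 14059) than higher (23.0%), and long non-coding genes the reverse (8.68% lower and 44.6% higher of 2303). The counts of list members below are to be read beside these shares. With scaling factors from coding genes of at least 10 CPM, the split became 7144 higher and 4527 lower, or 61.2% of calls higher in place of 48.6%. That scaling moved the median log2 fold change of all genes to 0.17, against 0.01, so small differences below are relative to the scaling used. Wherever edgeR called no gene of a list in one direction, an unadjusted p under 0.05 and DESeq2 also gave 0 genes in that direction.

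**Figure D1:**
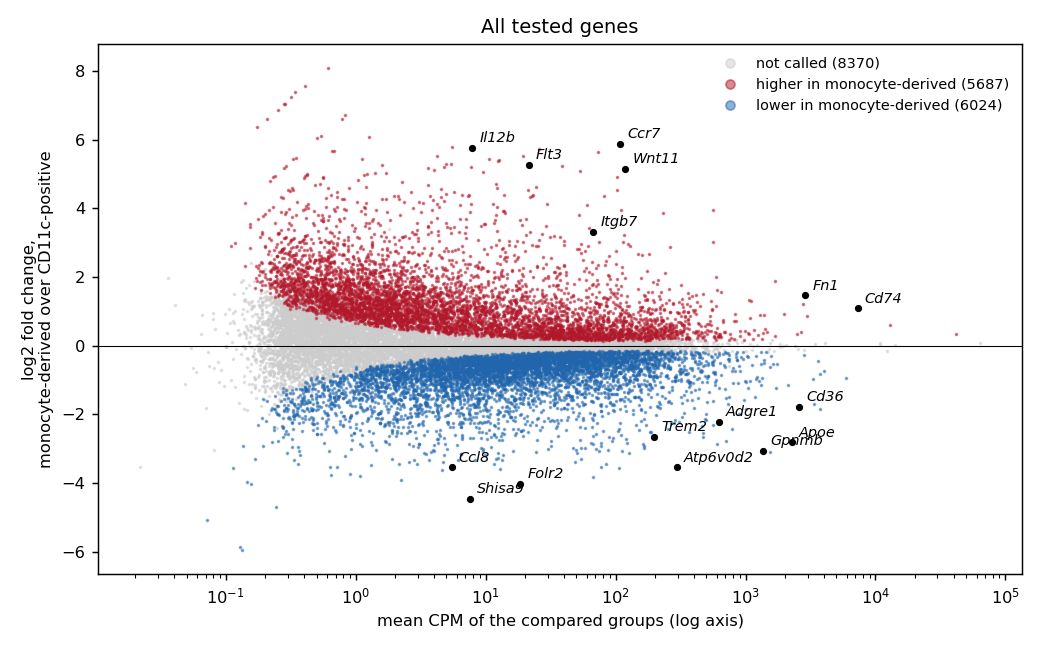
Each point is 1 of the 20081 tested genes, by its mean CPM over both groups on a log axis and its log2 fold change of monocyte-derived cells over CD11c-positive macrophages. Red points (5687) were called higher and blue points (6024) lower in monocyte-derived cells, and the labelled genes are described in the text.

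Ccr7, Flt3 and Cd209a were among the 15 largest rises of coding genes with at least 10 CPM. Ccr7 (chromosome 11, 99144196 to 99155077, minus strand in GRCm38), the receptor that guides mature dendritic cells to lymph nodes, had 328, 128 and 187 CPM in monocyte-derived libraries, against 3.18, 3.81 and 3.39 CPM in CD11c-positive libraries (log2 fold change 5.88, SE 0.35, adjusted p = 1.9e-06). Replicate 1 was highest and replicate 2 lowest among the monocyte-derived libraries, and even the lowest was far above the CD11c-positive range. Flt3 (chromosome 5, 147330741 to 147400489, minus strand), the cytokine receptor that dendritic cell precursors depend on, had 66.6, 27.8 and 31.0 CPM in monocyte-derived libraries and 0.942, 0.927 and 1.20 CPM in CD11c-positive libraries (log2 fold change 5.28, SE 0.25, adjusted p = 8.37e-09). Cd209a, a C-type lectin used as a marker of monocyte-derived and type 2 dendritic cells, had 195, 102 and 133 CPM in monocyte-derived libraries and 4.74, 1.89 and 2.33 CPM in CD11c-positive libraries (log2 fold change 5.63, SE 0.16, adjusted p = 4.28e-10). Replicate 1 was the highest monocyte-derived library for all 3 genes. No overlap of libraries was a condition for a place among the 15 largest rises, so it is no further result. In bulk RNA, fewer cells of a type and less RNA per cell cannot be told apart, here and in all that follows.

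The other genes of largest rise had varied roles. Il12b, the shared subunit of interleukins that drive T helper responses, stood at 15.5 ± 3.48 CPM in the monocyte-derived group and 0.277 ± 0.138 CPM in CD11c-positive macrophages, 54.5-fold higher. Siglecg, an inhibitory receptor for sialic acid ligands, was 46.3-fold higher, Kynu, an enzyme of tryptophan breakdown, 38.9-fold, and Mreg, a factor of melanosome and phagosome transport, 43.1-fold. Wnt11, a secreted Wnt ligand, had 313, 168 and 213 CPM in monocyte-derived libraries and 11.4, 3.87 and 5.51 CPM in CD11c-positive libraries (log2 fold change 5.16, SE 0.22, adjusted p = 4.43e-08). Mmp25, a membrane-anchored matrix protease, and P2ry10, a receptor for lysophospholipids, were 37.9-fold and 34.2-fold higher. None of these genes overlapped between the groups in any library, as the choice of the largest rises required.

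Most defining dendritic cell genes were higher. Of 23 genes listed for conventional dendritic cells, 16 were higher and 5 lower, with a median log2 fold change of 2.13 beside 0.01 over all genes. Their summed level overlapped, at 2623, 2303 and 2402 CPM of the library total in monocyte-derived libraries and 2384, 2525 and 2568 CPM in CD11c-positive libraries. That sum also held abundant members that were lower, such as Sirpa and Cadm1. Zbtb46, the transcription factor that marks the conventional dendritic lineage, had 86.5, 41.8 and 53.7 CPM in monocyte-derived libraries and 6.40, 6.65 and 6.33 CPM in CD11c-positive libraries (log2 fold change 3.20, SE 0.21, adjusted p = 4.91e-07). Irf4, the factor needed by type 2 dendritic cells, had 220.4, 138 and 193 CPM in monocyte-derived libraries and 53.5, 34.6 and 38.6 CPM in CD11c-positive libraries (log2 fold change 2.13, SE 0.13, adjusted p = 5.42e-08). Irf8, the factor of type 1 dendritic cells, moved the other way, at 51.2, 69.1 and 70.8 CPM in monocyte-derived libraries and 80.6, 85.8 and 101 CPM in CD11c-positive libraries (log2 fold change -0.49, SE 0.08, adjusted p = 9.94e-05). No library of one group reached the range of the other for any of these 3 genes.

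Markers of the type 1 branch were at low levels. Xcr1, the chemokine receptor of type 1 dendritic cells, had 10.6, 14.1 and 18.7 CPM in monocyte-derived libraries and 4.38, 1.92 and 3.08 CPM in CD11c-positive libraries (log2 fold change 2.30, SE 0.33, adjusted p = 0.000221). Clec9a, their receptor for dead cells, averaged 3.28 ± 1.26 CPM in the monocyte-derived group and 1.61 ± 1.09 CPM in CD11c-positive macrophages, with overlapping libraries (log2 fold change 1.20, SE 0.40, adjusted p = 0.0222). That call was lost without monocyte-derived replicate 1 (log2 fold change 0.50, adjusted p = 0.166), any one CD11c-positive replicate or the number 2 pair (1.06 to 1.32, adjusted p 0.0587 to 0.0940), and without the pairing (1.03, adjusted p = 0.232). Cadm1 and Tlr3, also used by type 1 cells, were lower in monocyte-derived cells (log2 fold changes -2.47 and -2.60). Mgl2, a lectin of type 2 dendritic cells and some macrophages, was 8.09-fold higher, at 262, 142 and 201 CPM in monocyte-derived libraries and 47.2, 16.2 and 18.6 CPM in CD11c-positive libraries. Of 7 plasmacytoid dendritic cell genes 2 were higher and 3 lower (median log2 fold change -0.49), where 28.3% of all tested genes were higher and 30.0% lower. Siglech, their surface marker, was not called and stood at 0.503 ± 0.0361 CPM in the monocyte-derived group and 0.378 ± 0.170 CPM in CD11c-positive macrophages, near 0 in both.

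Genes of mature, migrating dendritic cells were higher almost throughout. Of 21 listed, 20 were higher and 1 lower, with a median log2 fold change of 2.08. Ccl22, a ligand of CCR4 that draws regulatory T cells, had 249, 121 and 221 CPM in monocyte-derived libraries and 6.92, 6.49 and 5.78 CPM in CD11c-positive libraries (log2 fold change 4.91, SE 0.26, adjusted p = 5.6e-07). Apol7c, an apolipoprotein family member induced in dendritic cells, and Ccl17, the other CCR4 ligand, were 33.1-fold and 20.3-fold higher, Ccl17 at 10.97, 3.60 and 6.85 CPM in monocyte-derived libraries, a low level. Fscn1, which bundles actin in dendrites, had 145, 64.0 and 76.1 CPM in monocyte-derived libraries and 12.1, 15.2 and 10.7 CPM in CD11c-positive libraries (log2 fold change 2.96, SE 0.47, adjusted p = 0.00104). The gene that was lower was Cd83, a maturation antigen of dendritic cells, at 606, 466 and 531 CPM in monocyte-derived libraries and 640.2, 667 and 689 CPM in CD11c-positive libraries (log2 fold change -0.32, SE 0.08, adjusted p = 0.00489). The Cd83 call was lost without the number 2 pair (adjusted p = 0.118), without the number 3 pair (adjusted p = 0.0812) and with scaling from coding genes (log2 fold change -0.16, adjusted p = 0.110). Cd83 also stood at 786 ± 45.7 CPM in CD11c-negative macrophages, so its level was high in every obese population measured.

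The transcription factors of dendritic cells followed. Of 16 listed, 13 were higher and 1, Irf8, was lower (median log2 fold change 1.41). Bcl11a, which acts in plasmacytoid and lymphoid development, was 12.8-fold higher at a low level of 11.9 ± 3.63 CPM in the monocyte-derived group and 0.909 ± 0.103 CPM in CD11c-positive macrophages. Nfil3 and Etv6, factors of dendritic cell differentiation, were 2.88-fold and 2.95-fold higher. Of 18 factors listed for macrophages, 4 were higher and 9 lower, where 28.3% of all tested genes were higher and 30.0% lower. Bhlhe41 was 5.74-fold lower while its paralog Bhlhe40 was 2.72-fold higher. The count of higher macrophage factors was 2 without either monocyte-derived replicate 2 or 3, without either CD11c-positive replicate 1 or 3, without the number 3 pair and without the pairing, and 7 without the number 1 pair.

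**Figure D2:**
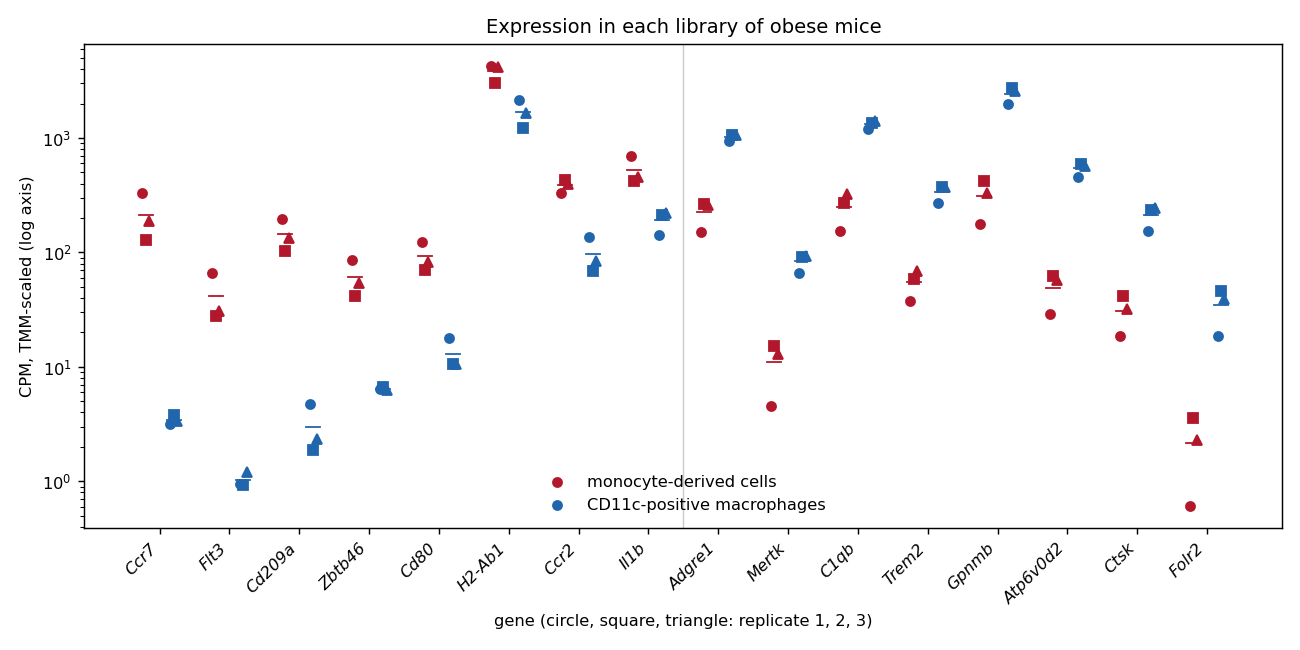
CPM of 16 genes in each library on a log axis, with monocyte-derived cells in red at the left and CD11c-positive macrophages in blue at the right of each gene, and a line at the mean of 3. The groups did not overlap for any gene shown, and monocyte-derived replicate 1 (circle) was highest for Ccr7, Flt3, Cd209a, Zbtb46, Cd80, H2-Ab1 and Il1b and lowest for the 8 genes on the right.

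Antigen presentation by class II molecules was higher in most parts of the pathway. Of 15 genes, 11 were higher and 3 lower (median log2 fold change 0.87). Cd74, the invariant chain that guides class II molecules, had 10880.2, 8221 and 10573 CPM in monocyte-derived libraries and 5689, 3573 and 4753 CPM in CD11c-positive libraries (log2 fold change 1.09, SE 0.14, adjusted p = 3.2e-05). H2-Oa and H2-Ob, subunits of the DO molecule that restrains peptide loading, also rose. H2-Ob had 38.6, 18.2 and 22.7 CPM in monocyte-derived libraries and 1.72, 1.99 and 1.57 CPM in CD11c-positive libraries, 14.4-fold higher. H2-Eb2, a class II beta chain gene, was 36.6-fold higher. H2 genes have similar sequences and can share reads, so values of single members are less certain. The members that were lower were the proteases Ctss and Lgmn, which cut the invariant chain and antigens, and March1, a ubiquitin ligase that removes class II molecules from the surface. Ctss had 775, 769 and 920.0 CPM in monocyte-derived libraries and 1671, 1805 and 1977 CPM in CD11c-positive libraries (log2 fold change -1.15, SE 0.07, adjusted p = 3.19e-08), with no overlap.

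Costimulation genes were mostly higher. Of 15 costimulatory and checkpoint ligands, 10 were higher and 2 lower (median log2 fold change 0.90). Cd80 had 123, 70.7 and 83.0 CPM in monocyte-derived libraries and 17.9, 10.6 and 10.6 CPM in CD11c-positive libraries (log2 fold change 2.83, SE 0.11, adjusted p = 7.23e-10), and Cd86, the other ligand of CD28, had 356, 251 and 307 CPM in monocyte-derived libraries and 118, 63.7 and 77.3 CPM in CD11c-positive libraries (log2 fold change 1.86, SE 0.11, adjusted p = 2.9e-08). Both ligands were separated between the groups in every library. Cd86 also stood at 262 ± 113 CPM in MHCII-low and 211 ± 63.4 CPM in CD11c-negative macrophages, both overlapping the monocyte-derived libraries. Cd80 was lower there, at 23.8 ± 6.93 CPM in MHCII-low and 22.9 ± 7.82 CPM in CD11c-negative macrophages, with no overlap. Havcr2, the inhibitory receptor TIM-3, and Pvr, a ligand of the receptors DNAM-1 and TIGIT, were 2.70-fold and 1.86-fold higher. Vsir, the checkpoint VISTA, and Cd276, the checkpoint B7-H3, were 1.98-fold and 2.88-fold lower. For class I presentation the 12 genes gave 5 higher and 3 lower, where 28.3% of all tested genes were higher and 30.0% lower. The peptide transporter gene Tap1 and the class I activator Nlrc5 were 1.88-fold and 2.36-fold higher. B2m, the class I light chain, was 1.36-fold lower. With scaling from coding genes the class I counts were 8 higher and 1 lower, and without the number 2 pair or the number 3 pair 1 gene was lower.

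A block of killer cell lectin-like receptor genes on chromosome 6 rose among the strongest. Klrd1 (chromosome 6, 129591782 to 129598775, plus strand), the CD94 subunit, had 17.5, 7.24 and 7.77 CPM in monocyte-derived libraries and 0.292, 0.165 and 0.103 CPM in CD11c-positive libraries (log2 fold change 5.79, SE 0.38, adjusted p = 4.4e-08). Klrb1b, an inhibitory receptor of the NKR-P1 family, had 76.7, 36.0 and 39.4 CPM in monocyte-derived libraries and 1.62, 0.496 and 0.787 CPM in CD11c-positive libraries (log2 fold change 5.73, SE 0.13, adjusted p = 9.38e-12). Klrk1, the activating receptor NKG2D, had 65.5, 22.1 and 34.9 CPM in monocyte-derived libraries and 2.08, 0.993 and 1.98 CPM in CD11c-positive libraries (log2 fold change 4.55, SE 0.23, adjusted p = 1.29e-08). Replicate 1 was highest in the monocyte-derived group for each, and no library overlapped. For Klrd1 and Klrb1b, which were among the 15 largest rises, the lack of overlap was a condition of that choice. Klri1 and Klri2, an inhibitory and an activating receptor of natural killer cells, were 42.2-fold and 23.6-fold higher. Of 12 tested Klr genes of this chromosome, a list put together after the results were seen, 9 were higher and 1, Klra3, was lower, a call that was lost without CD11c-positive replicate 1 (adjusted p = 0.0679), the number 1 pair (adjusted p = 0.0763) or the number 2 pair (adjusted p = 0.0971). Klr genes resemble each other and can share reads.

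These receptors are also genes of natural killer and T cells, so lymphocyte markers were read beside them. Of 13 T and natural killer cell genes 11 were higher and 1 lower, and their summed level was 188, 134 and 176 CPM of the library total in monocyte-derived libraries and 227, 213 and 237 CPM in CD11c-positive libraries. Most of that sum came from Il7r, the interleukin 7 receptor, at 155, 104 and 139.5 CPM in monocyte-derived libraries and 225, 208 and 233 CPM in CD11c-positive libraries (log2 fold change -0.74, SE 0.25, adjusted p = 0.0333). The Il7r call was lost without monocyte-derived replicate 2 or 3, CD11c-positive replicate 1 or 2, the number 2 or number 3 pair, or with scaling from coding genes (adjusted p 0.0703 to 0.157). Cd3e, a chain of the T cell receptor complex, had 1.03, 1.92 and 1.68 CPM in monocyte-derived libraries and 0.162, 0.397 and 0.103 CPM in CD11c-positive libraries, and Trbc2, a T cell receptor constant region, 0.797, 1.21 and 1.43 CPM in monocyte-derived libraries and 0.325, 0.430 and 0.205 CPM in CD11c-positive libraries. Both were at low levels in each group, though Cd3e was called higher (6.78-fold). Cd3d, another chain of that complex, was 7.32-fold higher, at means of 1.01 CPM in monocyte-derived and 0.134 CPM in CD11c-positive libraries. Cd2 and Cd5 were 3.09-fold and 2.93-fold higher. Their means were 9.33 and 6.80 CPM in monocyte-derived libraries and 3.06 and 2.34 CPM in CD11c-positive libraries. Ncr1, which marks natural killer cells, did not pass the filter on low counts. B cell genes were also higher, 7 of 11 with none lower, with a summed level of 89.7, 154 and 92.5 CPM of the library total in monocyte-derived libraries and 81.3, 105 and 92.4 CPM in CD11c-positive libraries. Replicate 2 was highest for 9 of the 11 B cell genes in the monocyte-derived group, while replicate 1 was highest for 8 of the 12 Klr genes. The part of lymphocytes in the Klr result was not tested.

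Monocyte genes were higher in nearly every case. Of 19 listed, 18 were higher and 1 lower, with a median log2 fold change of 2.00. Ccr2, the receptor that brings monocytes into tissue, had 334, 431 and 399 CPM in monocyte-derived libraries and 137, 68.9 and 83.5 CPM in CD11c-positive libraries (log2 fold change 2.11, SE 0.25, adjusted p = 0.000144). Ly6c2, which marks classical blood monocytes, had 2.92, 5.47 and 4.75 CPM in monocyte-derived libraries and 0.942, 1.19 and 1.06 CPM in CD11c-positive libraries (log2 fold change 2.00, SE 0.24, adjusted p = 1.2e-05). Both genes were separated between groups, and Ly6c2 was at a few CPM in even the highest library. Ms4a4c, Napsa and Plac8, all enriched in blood monocytes, were 15.3-fold, 8.90-fold and 8.71-fold higher. Cx3cr1, the receptor of patrolling monocytes and of many macrophages, had 49.2, 71.7 and 48.2 CPM in monocyte-derived libraries and 16.1, 11.1 and 15.1 CPM in CD11c-positive libraries (log2 fold change 2.03, SE 0.25, adjusted p = 0.000105). Fn1, fibronectin, made by young macrophages among others, had 4177, 3644 and 4715 CPM in monocyte-derived libraries and 2042, 1264 and 1351 CPM in CD11c-positive libraries (log2 fold change 1.47, SE 0.19, adjusted p = 0.000105). Gpx1, an antioxidant enzyme, was the member that was lower (1.80-fold). The name monocyte-derived states an origin that RNA levels do not measure, and these libraries held defining genes of dendritic cells, monocytes and macrophages together.

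Inflammatory cytokine genes were mixed. Of 19 listed, 9 were higher and 3 lower (median log2 fold change 0.33). Il1b had 698, 422 and 453 CPM in monocyte-derived libraries and 143, 213 and 222 CPM in CD11c-positive libraries (log2 fold change 1.53, SE 0.38, adjusted p = 0.00970). The groups did not overlap and the CD11c-positive libraries ran opposite to their pairs, replicate 1 being lowest there and highest among monocyte-derived libraries. Without CD11c-positive replicate 1 the log2 fold change of Il1b was 1.43 and its adjusted p 0.0582. Ptgs2, the prostaglandin synthase COX-2, had 172, 187 and 198 CPM in monocyte-derived libraries and 40.0, 30.6 and 45.6 CPM in CD11c-positive libraries (log2 fold change 2.28, SE 0.17, adjusted p = 1.41e-06). Tnfaip3, the NF-kappaB brake A20, was 1.75-fold higher. Tnf itself was not called, at 75.3, 80.8 and 98.8 CPM in monocyte-derived libraries and 125, 75.8 and 69.0 CPM in CD11c-positive libraries (log2 fold change 0.00, SE 0.23, adjusted p = 0.994), and was named after its value was seen. It was called higher without monocyte-derived replicate 1 (log2 fold change 0.31, adjusted p = 0.00739) and without the number 1 pair (0.31, adjusted p = 0.0154). Ccrl2, a chemerin-binding receptor, and Casp1, the inflammasome protease, were 2.31-fold and 1.71-fold lower.

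Of 20 chemokine genes 6 were higher and 6 lower, near the shares over all tested genes (28.3% higher and 30.0% lower). Beside Ccl22 and Ccl17, Ccl5, an attractant of T cells, was 6.18-fold higher, at 33.8, 22.0 and 29.8 CPM in monocyte-derived libraries and 6.43, 3.44 and 4.21 CPM in CD11c-positive libraries. Cxcl1, a neutrophil attractant, had 89.5, 123 and 150.3 CPM in monocyte-derived libraries and 417, 319 and 271 CPM in CD11c-positive libraries (log2 fold change -1.46, SE 0.22, adjusted p = 0.000487). Ccl8, a ligand made by resident macrophages, had 0.570, 1.07 and 0.966 CPM in monocyte-derived libraries and 5.78, 9.33 and 15.1 CPM in CD11c-positive libraries (log2 fold change -3.53, SE 0.47, adjusted p = 0.000269), and was far higher in MHCII-low macrophages, at 151 ± 38.8 CPM. Ccl genes resemble each other and may share reads. Without monocyte-derived replicate 1, or without the number 1 pair, 11 chemokine genes were higher.

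Receptors for attractants changed in both directions. Of 18, 9 were higher, Ccr7 and Ccr2 among them, and 7 lower. Ltb4r1, the high-affinity receptor for leukotriene B4, had 32.6, 18.6 and 27.9 CPM in monocyte-derived libraries and 2.21, 0.761 and 1.03 CPM in CD11c-positive libraries (log2 fold change 4.38, SE 0.29, adjusted p = 1.83e-07). S1pr1, the sphingosine-1-phosphate receptor of cells leaving tissue, had 7.90, 17.4 and 9.03 CPM in monocyte-derived libraries and 51.2, 65.0 and 60.1 CPM in CD11c-positive libraries (log2 fold change -2.40, SE 0.20, adjusted p = 5.47e-06). The receptors of complement fragments, C3ar1 and C5ar1, were 4.53-fold and 2.07-fold lower. Among adhesion genes 7 were higher and 9 lower of 19, where 28.3% of all tested genes were higher and 30.0% lower. Itgb7, the beta 7 integrin chain of gut and dendritic cell homing, had 162, 98.1 and 108 CPM in monocyte-derived libraries and 14.0, 11.4 and 10.9 CPM in CD11c-positive libraries (log2 fold change 3.32, SE 0.20, adjusted p = 4.44e-07). Itgal, the LFA-1 chain that binds T cells, was 4.79-fold higher, and Vcam1 and Itgb5 were 3.45-fold and 3.59-fold lower. The median log2 fold change of the adhesion list was -0.12, and 0.04 with scaling from coding genes.

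Macrophage identity genes were lower throughout. All 18 genes of the core list were called lower, with a median log2 fold change of -1.35, where 30.0% of all tested genes were. Adgre1, the F4/80 antigen, had 149.6, 267 and 261 CPM in monocyte-derived libraries and 944, 1057 and 1057 CPM in CD11c-positive libraries (log2 fold change -2.22, SE 0.11, adjusted p = 5.72e-09). Mertk (chromosome 2, 128698956 to 128802894, plus strand), the receptor by which macrophages engulf dying cells, had 4.59, 15.3 and 13.02 CPM in monocyte-derived libraries and 66.5, 91.1 and 92.5 CPM in CD11c-positive libraries (log2 fold change -2.99, SE 0.27, adjusted p = 2.34e-05). Fcgr1, the high-affinity IgG receptor CD64, had 26.1, 44.1 and 30.1 CPM in monocyte-derived libraries and 50.2, 61.8 and 66.0 CPM in CD11c-positive libraries (log2 fold change -0.84, SE 0.11, adjusted p = 3.82e-05). Replicate 1 was the lowest monocyte-derived library in each of these genes, and the groups did not overlap. Cd68, a lysosomal glycoprotein of macrophages, and Sirpa, the receptor for CD47, were 3.04-fold and 2.13-fold lower, and Mrc1, the mannose receptor, 1.67-fold. The sum of the core list was 5825, 7606 and 8374 CPM of the library total in monocyte-derived libraries and 17287, 19312 and 20515 CPM in CD11c-positive libraries, so the macrophage genes were present in both groups.

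Monocyte-derived replicate 1 stood apart from the other libraries of its group in some lists. For all 18 macrophage core genes, monocyte-derived replicate 1 was the lowest of the 3, and for 20 of 21 mature dendritic cell genes it was the highest. It was also the highest for 12 of 15 class II presentation genes and the lowest for 21 of 25 lysosomal genes. Over all 20081 tested genes it was the highest for 6732 and the lowest for 7445, while replicate 2 was the highest for 7495 and the lowest for 6909. In log2 CPM, monocyte-derived replicate 2 correlated at 0.976 with replicate 1 and 0.981 with replicate 3. Replicates 1 and 3 correlated at 0.985 with each other, so replicate 1 was not the library least like its group. In CD11c-positive macrophages replicate 1 was the lowest for 15 of 18 core genes, and the highest for 10 of 21 mature dendritic cell genes. Monocyte-derived replicate 2 was the lowest for 20 of the 21 mature dendritic cell genes. Other lists ran otherwise: of 19 monocyte genes monocyte-derived replicate 1 was the highest for 6 and the lowest for 6, and replicate 2 was the lowest for 15 of 25 cell cycle genes and 22 of 26 genes of oxidative phosphorylation. This is a description of 3 libraries and was not tested.

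Complement, Fc receptor and clearance genes followed the macrophage core. C1qb and C1qc, subunits of the complement recognition molecule made by macrophages, had log2 fold changes of -2.44 and -2.86. C1qb had 154, 270.4 and 324 CPM in monocyte-derived libraries and 1196, 1349 and 1402 CPM in CD11c-positive libraries (log2 fold change -2.44, SE 0.16, adjusted p = 3.62e-07). Of 16 complement genes 1 was higher, Cfp (properdin, 1.27-fold), and 10 were lower. Without the number 3 pair Cfp was not called (adjusted p = 0.0656). Of 9 Fc receptor genes 6 were lower, led by the activating receptor Fcgr3 (2.86-fold) and the IgG recycling receptor Fcgrt (2.65-fold). The inhibitory Fcgr2b rose, at 218, 209.9 and 211 CPM in monocyte-derived libraries and 138, 127 and 139 CPM in CD11c-positive libraries (log2 fold change 0.66, SE 0.10, adjusted p = 5.64e-05). Of 16 genes for clearance of dying cells 10 were lower, among them the scavenger receptor Stab1 (5.76-fold) and the bridging protein Mfge8 (3.78-fold), and 4 were higher. Timd4, the phosphatidylserine receptor TIM-4, rose to 20.2, 7.99 and 10.8 CPM in monocyte-derived libraries, against 0.909, 1.36 and 1.13 CPM in CD11c-positive libraries (log2 fold change 3.45, SE 0.28, adjusted p = 1.01e-06), and stood at 16.4 ± 5.95 CPM in MHCII-low macrophages.

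Genes of resident tissue macrophages were mostly lower, 14 of 20, with 4 higher and a median log2 fold change of -2.17. Folr2, a folate receptor, had 0.608, 3.60 and 2.31 CPM in monocyte-derived libraries and 18.8, 45.9 and 39.4 CPM in CD11c-positive libraries (log2 fold change -4.02, SE 0.50, adjusted p = 0.000291), and 69.1 ± 14.4 CPM in MHCII-low macrophages. Igf1, insulin-like growth factor, had 57.9, 91.6 and 88.8 CPM in monocyte-derived libraries and 341, 472 and 468 CPM in CD11c-positive libraries (log2 fold change -2.44, SE 0.10, adjusted p = 1.04e-09). Siglec1, Pf4 and Stab1 also fell, with log2 fold changes of -2.32, -2.60 and -2.53. The members that rose were Timd4, Cd209d, Ccl24 and F13a1. F13a1, coagulation factor XIII, had 181, 201 and 233 CPM in monocyte-derived libraries and 164, 98.8 and 117 CPM in CD11c-positive libraries (log2 fold change 0.78, SE 0.26, adjusted p = 0.0302), both far below the 2122 ± 1073 CPM of MHCII-low macrophages. The F13a1 call was lost without monocyte-derived replicate 2 or 3, any one CD11c-positive replicate or the number 2 or number 3 pair (log2 fold changes 0.55 to 0.80, adjusted p 0.0704 to 0.169), and without the pairing (adjusted p = 0.131, or 0.239 from all 21 libraries). Without the pairing 2 members of the list were higher.

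**Figure D3:**
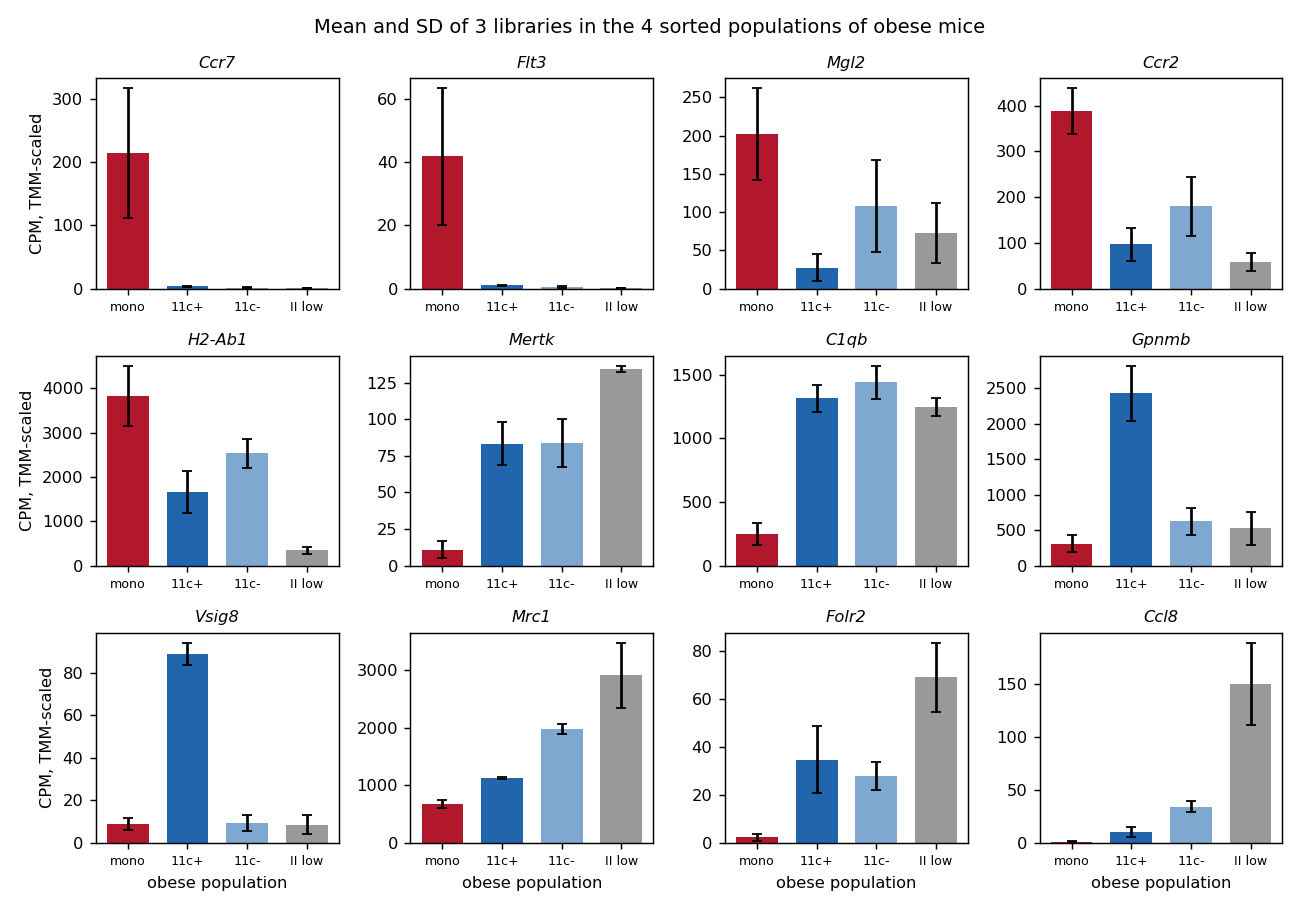
CPM of 12 genes in the sorted populations of obese mice, as bars from 0 at the mean with SD of 3 libraries, in the order monocyte-derived cells (mono), CD11c-positive (11c+), CD11c-negative (11c-) and MHCII-low macrophages (II low). Ccr7 and Flt3 were far lower outside the monocyte-derived cells, Gpnmb and Vsig8 were highest in CD11c-positive macrophages, and Mrc1, Folr2 and Ccl8 were highest in MHCII-low macrophages.

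The lipid-associated programme that marks macrophages around dying fat cells was lower in monocyte-derived cells. Of 20 listed genes 19 were lower and 1 was higher, with a median log2 fold change of -1.89. Trem2, the lipid receptor that this state depends on, had 37.5, 58.3 and 69.3 CPM in monocyte-derived libraries and 273, 373 and 375 CPM in CD11c-positive libraries (log2 fold change -2.66, SE 0.08, adjusted p = 1.59e-10). Gpnmb, a glycoprotein of lysosome-rich macrophages, had 176, 417 and 333 CPM in monocyte-derived libraries and 1980.4, 2711 and 2589 CPM in CD11c-positive libraries (log2 fold change -3.06, SE 0.17, adjusted p = 1.96e-07). Cd9, a tetraspanin used to sort these cells, had 91.4, 87.4 and 105 CPM in monocyte-derived libraries and 259, 377 and 365 CPM in CD11c-positive libraries (log2 fold change -1.78, SE 0.22, adjusted p = 0.000123). For each of these genes every monocyte-derived library lay below every CD11c-positive one, while CD11c-negative macrophages averaged 169 ± 43.8 CPM for Trem2 and 623 ± 189 CPM for Gpnmb, the last of which overlapped the monocyte-derived libraries. Cd63, Spp1 and Mmp12, a tetraspanin of late endosomes, osteopontin and macrophage elastase, were 4.24-fold, 3.72-fold and 4.92-fold lower. The member that was higher was Dcstamp, a fusion protein of osteoclasts and giant cells, at 45.8, 31.6 and 50.6 CPM in monocyte-derived libraries and 32.6, 24.3 and 22.0 CPM in CD11c-positive libraries, which overlapped (log2 fold change 0.69, SE 0.26, adjusted p = 0.0467). The Dcstamp call was lost without monocyte-derived replicate 1 or 3, CD11c-positive replicate 2 or 3 or the number 3 pair (log2 fold changes 0.43 to 0.64, adjusted p 0.155 to 0.323), in DESeq2 (0.70, adjusted p = 0.0752) and from all 21 libraries unpaired (0.67, adjusted p = 0.187).

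Genes of the lysosome fell together. Of 25 lysosomal genes 23 were lower and 1 was higher (median log2 fold change -0.96). Ctsl, the protease cathepsin L, had 136, 234 and 180.3 CPM in monocyte-derived libraries and 1099, 1418 and 1191 CPM in CD11c-positive libraries (log2 fold change -2.78, SE 0.09, adjusted p = 2.72e-10). Ctsd, cathepsin D, had 292, 389.8 and 400.2 CPM in monocyte-derived libraries and 1229.7, 1573 and 1501 CPM in CD11c-positive libraries (log2 fold change -2.00, SE 0.07, adjusted p = 4.28e-10). Ctsk, cathepsin K, best known from bone resorption, and Gusb, beta-glucuronidase, were 7.13-fold and 2.98-fold lower. Every monocyte-derived library was lower than every CD11c-positive one for these 4 genes. Ctsh, an aminopeptidase of the same family, was the gene that was higher, at 239, 192 and 225 CPM in monocyte-derived libraries and 197, 166 and 177 CPM in CD11c-positive libraries with overlap (log2 fold change 0.28, SE 0.07, adjusted p = 0.00348). Without the number 3 pair the adjusted p of Ctsh was 0.0822, and without monocyte-derived replicate 1 or the number 1 pair 2 lysosomal genes were higher. Lipa, the lipase that frees cholesterol and fatty acids inside lysosomes, was 2.97-fold lower.

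The proton pump that acidifies lysosomes, the V-ATPase, was lower in 14 of 16 subunit genes and higher in none (median log2 fold change -0.79). Atp6v0d2, a subunit of the membrane sector found in osteoclasts and some macrophages, had 28.8, 62.2 and 57.0 CPM in monocyte-derived libraries and 459, 596 and 574 CPM in CD11c-positive libraries (log2 fold change -3.54, SE 0.15, adjusted p = 8.51e-09). Atp6v1a, the catalytic subunit, had 166, 216 and 205 CPM in monocyte-derived libraries and 579, 599.8 and 576 CPM in CD11c-positive libraries (log2 fold change -1.58, SE 0.09, adjusted p = 1.15e-08). Both were separated in every library, and no other member of the list had a log2 fold change as large in size as Atp6v0d2. Atp6v0d2 was named among the largest falls, a choice that required a large fold and no overlap, so neither is a further result. Atp6v1a was named for a small p, so its separation is no further result either. Of the factors that switch on lysosomal genes, 5 of 6 listed were lower: Mitf was 2.19-fold lower, Tfe3 1.38-fold and Tfec, at a low level, 5.20-fold.

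These factors of the MiT family are known to bind the E-box CACGTG in promoters of lysosomal genes, so promoters were read for it. In RefSeq windows (GRCm38.p6) of 250 bases before to 50 after the start, 9.62% of 11919 promoters of tested genes held CACGTG, which reads the same on both strands. Of the lysosomal list 6 of 18 promoters held it (33.3%), and of the proton pump list 4 of 11 (36.4%). One of the lysosomal genes with the E-box was not called. Among called genes with a fold of at least 2 and at least 10 CPM, it was in 9.14% of 383 promoters of higher genes and 9.79% of 715 promoters of lower genes. Of the conventional dendritic cell list 4 of 16 promoters held it (25.0%). RefSeq and GENCODE starts can differ. In the 8887 windows whose start lay within 100 bases of the GENCODE start, a restriction chosen after the data were seen, the E-box was in 9.91% of all, in 3 of 14 lysosomal promoters (21.4%) and in 2 of 8 pump promoters (25.0%). The median GC content was 57.8% in the lysosomal promoters, 56.0% in those of the pump and 60.0% in all. A match of letters is a description and not a binding site. The 250 bases before the RefSeq start are shown, with the E-box in capitals, for 3 called genes that held it in that restricted set, picked after their values were seen: Lamp1, a lysosomal membrane protein (2.07-fold lower), Glb1, the lysosomal beta-galactosidase (3.01-fold lower), and Atp6v0b, a subunit of the pump (1.73-fold lower).
Lamp1, chr8:13158911-13159160, plus strand: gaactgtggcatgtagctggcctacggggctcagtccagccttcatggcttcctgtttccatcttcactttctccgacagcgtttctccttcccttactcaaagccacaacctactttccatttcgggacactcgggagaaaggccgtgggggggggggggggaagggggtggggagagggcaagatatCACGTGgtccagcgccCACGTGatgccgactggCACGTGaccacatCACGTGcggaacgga
Glb1, chr9:114400828-114401077, plus strand: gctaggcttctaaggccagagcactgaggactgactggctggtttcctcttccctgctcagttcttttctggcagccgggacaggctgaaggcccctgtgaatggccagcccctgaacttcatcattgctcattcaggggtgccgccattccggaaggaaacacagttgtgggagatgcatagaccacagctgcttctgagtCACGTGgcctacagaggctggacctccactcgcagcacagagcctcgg
Atp6v0b, chr4:117887330-117887579, minus strand: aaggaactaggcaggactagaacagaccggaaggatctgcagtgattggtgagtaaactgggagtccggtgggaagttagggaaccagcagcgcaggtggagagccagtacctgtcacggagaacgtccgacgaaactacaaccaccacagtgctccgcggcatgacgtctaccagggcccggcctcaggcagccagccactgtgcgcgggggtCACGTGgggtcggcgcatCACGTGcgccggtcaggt
The RefSeq and GENCODE starts were at the same base for Lamp1, 2 bases apart for Glb1 and 4 for Atp6v0b. Lamp1 held the E-box at 4 places, Atp6v0b at 2 and Glb1 at 1. The PU.1 box GAGGAAGT was read on both strands in the same sets of called genes with a fold of at least 2 and at least 10 CPM. It was in 6.53% of 383 promoters of higher genes and 4.62% of 715 of lower genes. Of all 11919 promoters, which had no such CPM floor, 3.26% held it.

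Lipid handling genes were lower at uptake and storage. Of 19 genes 13 were lower and 3 higher (median log2 fold change -1.005). Cd36, the fatty acid scavenger receptor, had 896, 1279.9 and 1322 CPM in monocyte-derived libraries and 3548, 4320.1 and 4064 CPM in CD11c-positive libraries (log2 fold change -1.78, SE 0.09, adjusted p = 3.05e-09). Msr1, scavenger receptor A, and Plin2, the coat protein of lipid droplets, were 3.63-fold and 2.36-fold lower. The genes that were higher were Dgat1 and Dgat2, the enzymes of the last step of triglyceride synthesis, and Lipe, the hormone-sensitive lipase, of which Dgat2 was not called without the number 2 pair (adjusted p = 0.0507). Dgat1 had 83.5, 87.4 and 94.6 CPM in monocyte-derived libraries and 33.8, 27.6 and 39.5 CPM in CD11c-positive libraries (log2 fold change 1.404, SE 0.10, adjusted p = 6.23e-08), with no overlap. For cholesterol efflux 7 of 10 targets of the sterol receptor LXR were lower and none higher: Apoe, apolipoprotein E, had 323, 728 and 698 CPM in monocyte-derived libraries and 3357, 3904 and 4557 CPM in CD11c-positive libraries (log2 fold change -2.81, SE 0.18, adjusted p = 5.48e-07), and the transporter Abca1 was 2.82-fold lower. Nr1h3, which encodes LXR alpha, was 2.45-fold lower.

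Genes of energy metabolism changed by smaller amounts. Of 19 genes of fatty acid oxidation 16 were lower and 1 was higher (median log2 fold change -0.65). Cpt1a, the carnitine transferase that admits fatty acids to mitochondria, had 132, 174 and 156 CPM in monocyte-derived libraries and 262, 297 and 291 CPM in CD11c-positive libraries (log2 fold change -0.89, SE 0.07, adjusted p = 1.99e-07). Slc25a20, the carnitine carrier, was the gene that was higher (1.63-fold). Of 26 nuclear genes of oxidative phosphorylation 20 were lower and none higher (median log2 fold change -0.44), except that 1 was higher with scaling from coding genes. The smallest p values were those of the succinate dehydrogenase subunits Sdhb (1.63-fold), Sdhd (1.60-fold) and Sdhc (1.502-fold). Glycolysis gave 4 higher and 9 lower of 17, and 5 lower from all 21 libraries unpaired. Of all coding genes 23.0% were higher and 39.1% lower, so the higher count was near that share. Slc16a3, the lactate exporter MCT4, had 122, 128 and 103 CPM in monocyte-derived libraries and 28.5, 21.7 and 23.7 CPM in CD11c-positive libraries (log2 fold change 2.26, SE 0.13, adjusted p = 2.26e-08). Hk2 and Pfkp, a hexokinase and a phosphofructokinase, were 1.46-fold and 1.82-fold higher, while Aldoa and Tpi1, further down the path, were 1.90-fold and 1.61-fold lower. Cholesterol synthesis gave 5 higher and 8 lower of 20, where 28.3% of all tested genes were higher and 30.0% lower. Dhcr7, an enzyme of its last steps, was 1.94-fold lower. In this list 3 genes were higher without the number 3 pair or without the pairing.

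Iron and heme genes were lower in 11 of 16 and higher in none, though 1 was higher with scaling from coding genes, without replicate 1 of either group and without the number 1 pair. Slc40a1, the iron exporter ferroportin, had 0.418, 2.01 and 0.882 CPM in monocyte-derived libraries and 4.25, 15.8 and 13.6 CPM in CD11c-positive libraries (log2 fold change -3.34, SE 0.37, adjusted p = 4.96e-05). Blvra and Blvrb, the biliverdin reductases of heme breakdown, were 2.56-fold and 3.37-fold lower, Slc48a1, a heme transporter of the lysosome, 2.28-fold, and the ferritin chain Ftl1 2.20-fold. Of 24 matrix and growth factor genes 5 were higher and 14 lower, where 28.3% of all tested genes were higher and 30.0% lower. Areg, amphiregulin, a ligand of the EGF receptor, had 16.3, 13.8 and 16.0 CPM in monocyte-derived libraries and 4.55, 1.85 and 3.52 CPM in CD11c-positive libraries (log2 fold change 2.28, SE 0.20, adjusted p = 7.77e-07). Pdgfa, a platelet-derived growth factor, was 3.96-fold lower, and Igf1 fell as given above.

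Cell cycle genes were lower in 24 of 25 cases (median log2 fold change -1.04). Mki67, the proliferation antigen, had 259.6, 211 and 228 CPM in monocyte-derived libraries and 367, 458 and 391 CPM in CD11c-positive libraries (log2 fold change -0.80, SE 0.10, adjusted p = 1.4e-05). Ccnb1, the mitotic cyclin, and Rrm2, a subunit of ribonucleotide reductase, were 3.15-fold and 3.02-fold lower. The groups did not overlap for these 3 genes. Tk1, thymidine kinase, was the exception, with 131, 73.7 and 89.6 CPM in monocyte-derived libraries and 39.8, 41.7 and 39.6 CPM in CD11c-positive libraries (log2 fold change 1.27, SE 0.19, adjusted p = 0.000303).

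Interferon-induced genes showed no common direction. Of 23 genes 8 were higher, 3 lower and 12 not called, with a median log2 fold change of 0.14. Mx1, an antiviral GTPase, had 25.8, 11.96 and 15.8 CPM in monocyte-derived libraries and 2.92, 2.71 and 2.53 CPM in CD11c-positive libraries (log2 fold change 2.66, SE 0.18, adjusted p = 5.06e-08), and Oas3 was 1.76-fold higher. Ddx58, the RNA sensor RIG-I, had 15.5, 19.8 and 17.0 CPM in monocyte-derived libraries and 22.5, 26.4 and 24.0 CPM in CD11c-positive libraries (log2 fold change -0.48, SE 0.09, adjusted p = 0.000394). Each of these genes was separated between the groups, but they were named for a small p, so this is no further result. Over the list of 23 the groups did not overlap for 8 genes that were higher and 2 that were lower. Over all tested genes these shares were 30.4% and 30.5%. The higher count was 4 without the number 2 pair and 5 without the number 3 pair, and the lower count was 1 without the number 3 pair, monocyte-derived replicate 1 or 3, or CD11c-positive replicate 3, and 5 without the number 1 pair. The median was -0.05 without monocyte-derived replicate 3 and -0.01 without the number 3 pair.

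Immediate early genes, which collagenase digestion is known to induce, were higher in 11 and lower in 1 (none without the number 2 pair or with scaling from coding genes) of 18 cases (median log2 fold change 0.32). Ier2 had 145, 102 and 105 CPM in monocyte-derived libraries and 64.6, 35.0 and 35.1 CPM in CD11c-positive libraries (log2 fold change 1.43, SE 0.08, adjusted p = 1.17e-08), and the heat shock gene Hspa1b was 2.64-fold higher. Without the pairing by number, 7 of them were higher. Their part in the other results was not tested.

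Markers of other cells were read beside these results. All 14 endothelial genes were lower, with a summed level of 93.4, 229 and 118 CPM of the library total in monocyte-derived libraries and 349, 397 and 308 CPM in CD11c-positive libraries. Cdh5, the endothelial cadherin, had 4.21, 31.5 and 8.91 CPM in monocyte-derived libraries and 55.9, 67.0 and 43.3 CPM in CD11c-positive libraries (log2 fold change -2.18, SE 0.44, adjusted p = 0.00371), and replicate 2 was highest in both groups. Fibroblast genes summed to 1089, 2530.2 and 1026 CPM in monocyte-derived libraries and 1634, 2429.8 and 1368 CPM in CD11c-positive libraries, overlapping, with replicate 2 highest for all 16 genes in each group. Of these, 10 were called lower, 6 without monocyte-derived replicate 1 or 3, CD11c-positive replicate 1 or the number 1 pair, 4 without the number 3 pair, 5 with scaling from coding genes and 0 without the pairing. Of 11 adipocyte genes 10 were lower and 1 was higher, while the defining Adipoq was under 1 CPM in every library. Of 3 tested neutrophil genes S100a8 was near 0 in both groups, and Csf3r, the receptor of granulocyte colony-stimulating factor, was called higher, at 33.9 ± 6.47 CPM in the monocyte-derived group and 24.4 ± 4.79 CPM in CD11c-positive macrophages (adjusted p = 0.0313), and was named after its value was seen. That call was lost without monocyte-derived replicate 2 or 3, CD11c-positive replicate 1 or 2, the number 2 or number 3 pair, and from all 21 libraries. Of 7 mast cell, eosinophil and basophil genes 4 were higher and 1 lower, with a summed level of 44.3, 54.4 and 53.9 CPM in monocyte-derived libraries and 11.8, 36.5 and 34.4 CPM in CD11c-positive libraries. The higher count was 2 without the pairing, CD11c-positive replicate 3 or the number 3 pair. None of 10 mesothelial genes was called. The part of these cells in the results was not tested.

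**Figure D4:**
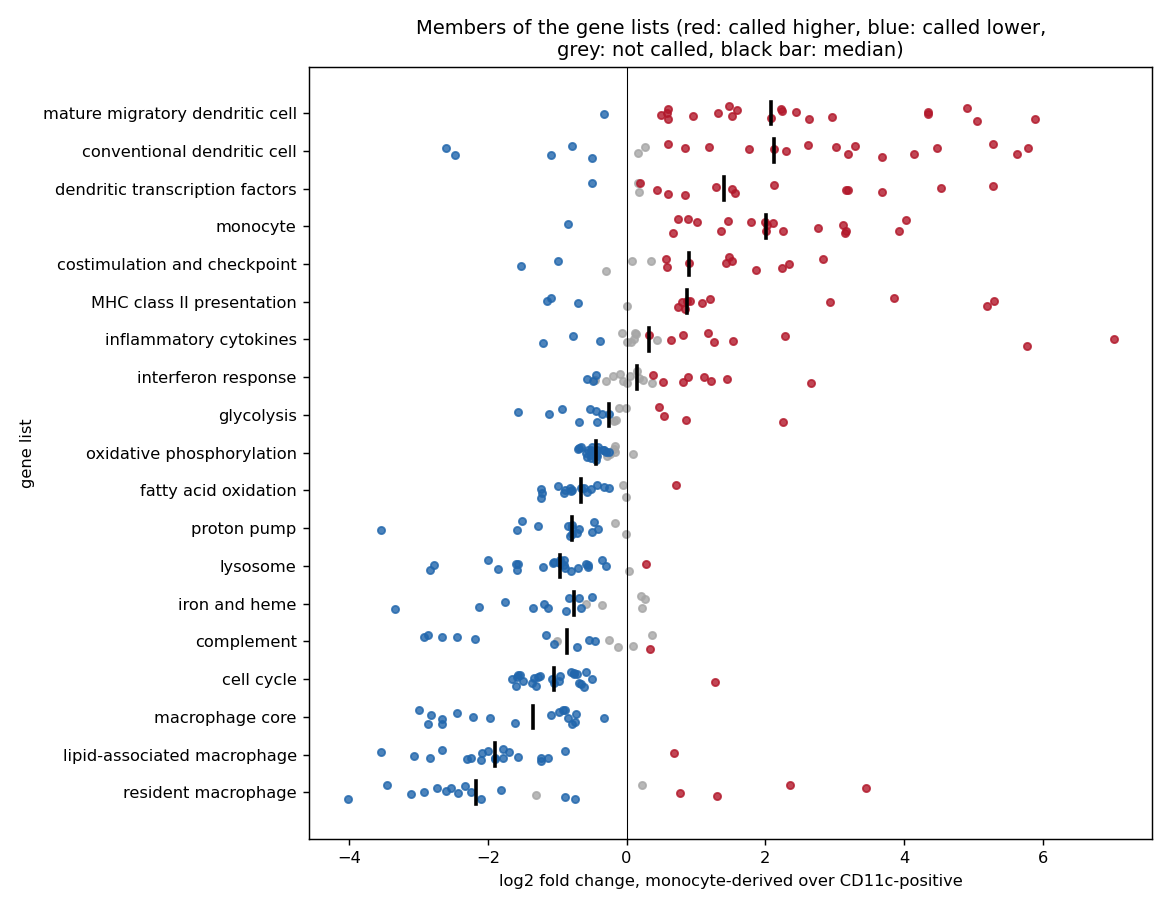
Each point is 1 gene of a list, by its log2 fold change of monocyte-derived cells over CD11c-positive macrophages, with the median of the list as a black bar. Dendritic cell and monocyte lists lie to the right of 0 (medians 1.41 to 2.13), and the macrophage, lipid-associated and resident lists lie to the left (medians -1.35 to -2.17).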

How the data were processed

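The authors deposited whole-number counts of reads per gene, for which the submitters' processing notes name Trim Galore 0.4.5, STAR 2.6.0a, Subread 1.4.6-p5 (featureCounts) and GRCm38. RNA came from a PicoPure kit and libraries from a NuGen Ovation kit, per the labels. The sources used here do not give how strand was counted, so overlapping genes cannot be told apart. Of the named genes 36 have exons shared with an opposite-strand gene, such as Il1b, Fn1 and Cd9, and 4 (Clec9a, Ctsd, Glb1 and Klrb1b) with a same-strand coding gene. Of 54532 gene IDs, 53315 matched GENCODE M21 with their version and 54495 without it.

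Counts of the 12 obese libraries were filtered with filterByExpr, scaled by TMM and fitted with the robust quasi-likelihood test of edgeR 4.0.16 in R 4.3.3, with terms for group and replicate number (6 residual degrees of freedom, common dispersion 0.0123). Tests were 2-sided, with Benjamini-Hochberg adjustment over all 20081 genes and a threshold of 0.05. SEs are those the F statistic implies. The test was also run on simulated counts in which few genes changed, evenly in both directions. That run cannot show how the test or the scaling behaves where most genes differ. Equal numbers were used as pairs, though the labels do not say what such libraries share. Over 8214 genes, deviations from the group mean correlated at 0.121 to 0.776 in 18 of 18 pairs of equal number and at -0.700 to 0.232 otherwise. Centring on a mean of 3 libraries pushes unequal pairs down where equal pairs are positive, so these ranges are not independent.

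The members, gene lists and tests were chosen with earlier results of these data known. Genes were named if among the 15 largest rises or falls of called coding genes that had an official symbol, 10 CPM or more in the higher group, no overlap and 1 direction in all pairs (1788 higher and 3601 lower genes qualified). The 4 called list members of smallest p in each direction could be named too, as could fixed sort and lineage markers. DESeq2 1.42.0 and other settings were alternatives.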

Additional observations from a re-analysis of the deposited data

How the results depend on the processing

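Libraries were paired by number, and 10456 genes were called with no replicate block, 5082 higher and 5374 lower. The count was 10740 from the 6 compared libraries alone, 8884 from all 21 libraries unpaired, 11708 with DESeq2 size factors, 11671 with scaling from coding genes, 11148 with DESeq2 and 11863 with no filter. It ran from 10318 to 11211 without one library and from 8536 to 11398 without one pair, lowest without number 3. Of the 11711 called genes, 11389 to 11711 could be fitted in each other setting, and the log2 fold change had the other sign for 9 with scaling from coding genes and for 0 in every other setting. Unpaired, Ccl24 (adjusted p = 0.0517), Clec9a (0.232), F13a1 (0.131) and Itgax (0.0712) lost their calls, and of the fibroblast list 0 were called lower. From 21 libraries unpaired, Ccl24, Cd83, Cfp, Clec9a, Csf3r, Ctsh, Dcstamp, F13a1, Hspa1b and Klra3 lost theirs (adjusted p 0.0535 to 0.336), 3 chemokine genes were higher and 3 lower, 5 glycolysis genes lower and 5 interferon genes higher. With no filter 10 chemokine genes were higher and 6 interferon genes lower. Among uncalled genes, the log2 fold change of Tnf was -0.083 unpaired, -0.032 from the 6 libraries, -0.11 from 21 and -0.043 with no filter, and -0.30 to 0.31 without one library or pair. That of Siglech was -0.11 without CD11c-positive replicate 1 and 0.88 without its replicate 2. Causes were not tested. Genes under 1 CPM in the higher group rest on few counts. Of these, 20.8% were called higher and 5.85% lower, and the part of depth in this was not tested.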

Other observations

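Some of the 15 largest falls in monocyte-derived cells were in genes of none of the lists. Fat3, a giant protocadherin of neurons, had 4.48, 33.9 and 20.0 CPM in monocyte-derived libraries and 109.6, 248 and 221 CPM in CD11c-positive libraries (log2 fold change -3.58, SE 0.32, adjusted p = 2.88e-05). Myh15, a myosin heavy chain, had 3.34, 23.3 and 23.5 CPM in monocyte-derived libraries and 95.1, 175 and 189.8 CPM in CD11c-positive libraries (log2 fold change -3.45, SE 0.31, adjusted p = 2.44e-05). Shisa9, a subunit of neuronal glutamate receptors, and Map2, a microtubule protein of dendrites of neurons, were 22.1-fold and 10.9-fold lower. In both groups replicate 1 was the lowest library for all 4 genes. Cpe, carboxypeptidase E of secretory granules, fell alike, with 2.81, 15.04 and 10.7 CPM in monocyte-derived libraries and 63.5, 164 and 143 CPM in CD11c-positive libraries (log2 fold change -3.83, SE 0.18, adjusted p = 2.74e-08). The groups did not overlap for any of the 5 genes, as the choice of the largest falls required.

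Vsig8, an immunoglobulin-family surface protein, was highest in the CD11c-positive macrophages among the 4 obese populations. It had 6.08, 8.50 and 12.01 CPM in monocyte-derived libraries and 82.6, 91.4 and 92.4 CPM in CD11c-positive libraries (log2 fold change -3.40, SE 0.27, adjusted p = 7.51e-06), against 9.33 ± 3.65 CPM in CD11c-negative and 8.54 ± 4.29 CPM in MHCII-low macrophages. Chp2, a calcineurin-like calcium-binding protein, followed another order, with 1.52 ± 0.907 CPM in monocyte-derived cells, 14.9 ± 2.69 CPM in CD11c-positive, 29.8 ± 1.45 CPM in CD11c-negative and 76.5 ± 17.5 CPM in MHCII-low macrophages. Akr1b8, an aldo-keto reductase, had 5.58, 17.8 and 13.9 CPM in monocyte-derived libraries and 66.0, 184 and 177 CPM in CD11c-positive libraries (log2 fold change -3.53, SE 0.08, adjusted p = 9.38e-12), and both groups were lowest in replicate 1.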
